A study of Caenorhabditis elegans with 14 samples.

Results

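The UDP-glucuronosyltransferase (UGT) genes of *C. elegans* were examined in RNA-seq of whole worms. They were taken as every gene whose name in the deposited tables is ugt- followed by a number, which gave 66 of 46856 genes, all of them protein-coding in the annotation. UGTs are enzymes of the endoplasmic reticulum that transfer a sugar from a UDP-sugar donor to a small lipophilic molecule, which makes it more soluble and easier to export. They form part of phase II detoxification, together with the glutathione S-transferases. The cytochrome P450 enzymes act before them in phase I, and ABC transporters such as the P-glycoproteins move the products out of the cell. In the worm the intestine is a main site of detoxification, and SKN-1, the Nrf-type factor of the oxidative stress response, is a known regulator of phase II genes.

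The 14 libraries formed 7 groups of 2 biological replicates, all from L4 or young adult animals. Every group carried rrf-3(pk1426), a mutation that makes worms hypersensitive to RNAi, so no group was wild type. C was this strain on empty vector at 20 °C, and C (HS) was the same after 2 h at 33 °C. The reduced insulin signaling (rIIS) groups also carried daf-2(e1368), an allele of the insulin/IGF-1 receptor. They were rIIS-C (empty vector), daf-16i (daf-16 RNAi) and skn-1i (skn-1 RNAi) at 20 °C, and rIIS-C (HS) (empty vector) and hsf-1i (HS) (hsf-1 RNAi) after the same heat shock. DAF-16 is the FOXO factor that insulin signaling holds in check, and HSF-1 is the heat shock factor. Levels are given as CPM (exon reads scaled to library size, with TMM factors), and a member counts as called where the adjusted p of edgeR's quasi-likelihood test over all genes tested was under 0.05. Fold changes are log2 values of the first group over the second, with the standard error (SE). As in the study, a gene that was higher in rIIS animals than in animals on RNAi of a factor is termed activated by that factor, and one that was lower repressed. With 2 libraries a group, the p-values measure the spread between few samples. In whole worms, fewer cells of a type and less RNA per cell cannot be told apart.

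The libraries held 4681170 to 22767301 exon reads. Outside C (HS), 1 library of each group had 9.39% to 9.89% of its exon reads across exon junctions and the other 22.6% to 26.3%. Both C (HS) libraries lay apart, at 14.3% and 16.7%. The paper's methods name alternative read lengths and sequencing platforms, and their part in this split was not tested. The common dispersion was 0.0275 over the 12 libraries without C (HS), 0.0813 over the 6 heat-shocked libraries and 0.0508 over all 14. Reads of the targeted genes fell under skn-1 and hsf-1 RNAi. The skn-1 level was 153 and 102 CPM in rIIS-C and 26.2 and 25.3 in skn-1i (a log2 ratio of 2.31, edgeR SE 0.21, adjusted p = 5.61e-06). The hsf-1 level was 34.2 and 42.0 in rIIS-C (HS) and 13.6 and 13.9 in hsf-1i (HS) (1.46, edgeR SE 0.19, adjusted p = 0.000197). The daf-16 level was 85.9 and 49.9 in rIIS-C and 51.7 and 40.7 in daf-16i, which overlapped, and did not pass the test (0.55, edgeR SE 0.26, adjusted p = 0.283). Of 12 intestinal marker genes 11 were present in the tables, and all 11 had reads in every group, as did all 8 muscle and all 8 hypodermal markers. Of 7 early embryo markers, med-1, end-1 and pes-10 had no read in C, and med-1 had none in any group but daf-16i.

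The family lay on all chromosomes, with 41 members on chromosome V, 12 on IV, 5 on I, 4 on X, 3 on III and 1 on II (coordinates as deposited, WBcel235). Many stood side by side, and 36 members fell into 11 tandem groups with no more than 20000 bases between neighbours. The largest held 7 genes on chromosome V from 4887221 to 4911379 (ugt-12, ugt-11, ugt-9, ugt-10, ugt-8, ugt-14 and ugt-13). The next held 6, also on V, from 7139602 to 7169205 (ugt-40, ugt-37, ugt-38, ugt-39, ugt-41 and ugt-36). The members were alike in size, with 4 to 14 exons and a coding length of 1506 to 1797 bases (median 1596). Reads of close copies can be split between them. Under 90% of exon reads were unique in 5 members, among them ugt-19 (87.8%) and ugt-49 (81.0%), and ugt-22 stood at 90.6%. The counting is not stated to use strand, and exons of some members lie over exons of genes on the opposite strand. These overlaps were taken from the Ensembl annotation. For ugt-22 the overlap was 13.9% of exon bases (srz-29), for ugt-50 16.98% (nhr-26), for ugt-48 7.45% (cft-1) and for ugt-47 5.91% (srd-49). The Ensembl exons were longer than the deposited ones (2220 bases against 1605 for ugt-22), so some of the overlap may lie outside the counted bases.

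Per length, the most abundant member was ugt-62 (chromosome III, 4537374 to 4540621), with a mean of 117 RPKM over the 14 libraries. It was followed by ugt-47 (chromosome V, 10096332 to 10098577) at 51.7 RPKM, ugt-22 (chromosome IV, 13639350 to 13644042) at 43.7, ugt-46 (chromosome X, 526073 to 530138) at 32.3 and ugt-12 (chromosome V, 4887221 to 4889595) at 31.4. At the other end, 11 members were too low to be tested over the 12 libraries, with 4 to 99 exon reads over all 14 (ugt-3, ugt-10, ugt-27, ugt-34, ugt-35, ugt-38, ugt-40, ugt-42, ugt-56, ugt-57 and ugt-59). Thus 55 members were tested over the 12 libraries, 54 over the 6 heat-shocked ones and 57 over all 14. A member that passed this filter only through the group where it was high had to differ, so the counts below describe the tested members and not the whole family.

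The summed level of the family differed several-fold between groups. It was 1236 and 1241 CPM in C, 877 and 1029 in rIIS-C, and 1509 and 1434 in daf-16i. It was lowest in skn-1i at 474 and 510 CPM. After heat shock it was 804 and 738 CPM in C (HS), 1581 and 1793 in rIIS-C (HS), and 593 and 606 in hsf-1i (HS). No 2 groups overlapped in this scaled sum. An exact permutation test of 2 libraries against 2 cannot give a two-sided p under 0.333, so the sums stand as values. The share of all exon reads, which uses no scaling, was lowest in skn-1i at 0.0370% and 0.0363%, followed by hsf-1i (HS) at 0.0399% and 0.0403% and C (HS) at 0.0529% and 0.0493%. In the other 4 groups it ran from 0.111% to 0.205%. It was 0.163% and 0.167% in C and 0.111% and 0.168% in rIIS-C, which overlapped. It was 0.205% and 0.193% in daf-16i and 0.187% and 0.205% in rIIS-C (HS), which overlapped too. Part of the difference came from 1 gene, since ugt-62 made up 33.0% and 35.7% of the summed level in rIIS-C (HS) but 2.82% and 2.04% in skn-1i. Without ugt-62 the sum was 1060 and 1153 CPM in rIIS-C (HS), 461 and 499 in skn-1i, and 1111 and 1113 in C. The number of members at 5 CPM or more was 38 in both C libraries, 30 and 33 in rIIS-C, 18 and 17 in skn-1i, 34 and 39 in rIIS-C (HS), and 23 and 27 in hsf-1i (HS).

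**Figure D1:**
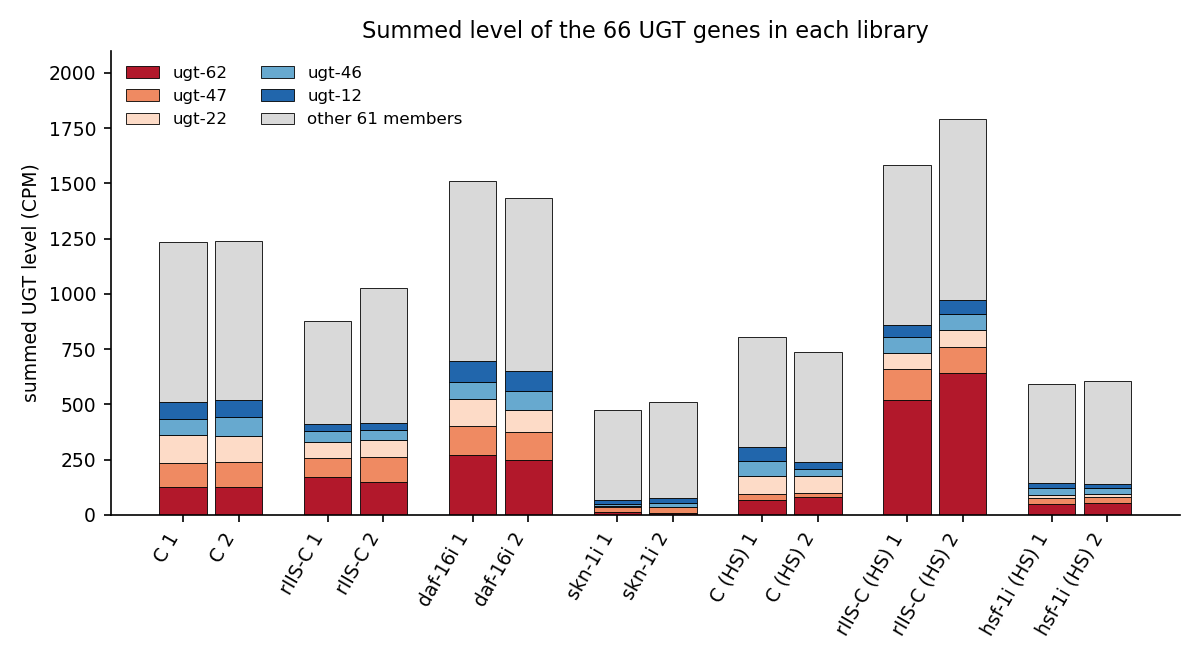
Summed level of the 66 UGT genes in each of the 14 libraries (bars, CPM, linear axis from 0), with the 5 members of highest RPKM in colour and the others in grey. The sum was lowest in skn-1i (474 and 510 CPM) and highest in rIIS-C (HS) (1581 and 1793 CPM), where ugt-62 took 33.0% and 35.7% of it.

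The comparison of rIIS-C with skn-1i asks which members depend on SKN-1 in animals with reduced insulin signaling. Of 55 members tested, 26 were activated and 7 repressed by SKN-1. Among all genes tested 56.2% were called in this comparison, so the share of members called (60%) was near the background. The directions were less alike. Of the members 47.3% were higher in rIIS-C and 12.7% lower, beside 30.6% and 25.7% of all genes, and the median log2 fold change was 0.58 over the members tested and 0.13 over all genes.

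The largest change was that of ugt-22. Its level was 72.1 and 77.1 CPM in rIIS-C and 2.43 and 2.11 in skn-1i. The 2 groups were far apart, at 5.05 on the log2 scale (edgeR SE 0.19, adjusted p = 2.28e-07), and the next lowest group was hsf-1i (HS), at 12.8 and 11.8 CPM. The next was ugt-62, with 173 and 150 CPM in rIIS-C against 13.4 and 10.4 in skn-1i (3.78, edgeR SE 0.19, adjusted p = 3.41e-07). For ugt-17 (chromosome V, 10102629 to 10104898), the neighbour of ugt-47, the values were 34.2 and 62.7 in rIIS-C against 4.06 and 3.28 in skn-1i. The replicates of rIIS-C were apart, but both stood well above skn-1i for ugt-17 (3.77, edgeR SE 0.29, adjusted p = 2.23e-06). Levels of ugt-26 (chromosome I, 4721206 to 4723716) were 10.4 and 9.75 CPM in rIIS-C and 0.811 and 0.702 in skn-1i (3.73, SE 0.55). Levels of ugt-41 were 5.39 and 13.2 against 1.01 and 0.936 (3.35, SE 0.55), and those of ugt-19 (chromosome IV, 6076771 to 6079945) were 14.2 and 18.1 against 2.84 and 2.81 (2.53, SE 0.20). These 6 members were called under every alternative tried. Other abundant members were also activated, among them ugt-49 (2.20), ugt-5 (2.16), ugt-28 (2.10), ugt-47 (2.02) and ugt-46 (1.91).

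The 7 repressed members changed less. The leading one, ugt-23 (chromosome X, 9922943 to 9925088), was at 31.3 and 22.2 CPM in rIIS-C and at 71.2 and 75.7 in skn-1i, where it was the most abundant member of the family in CPM with 15% and 14.9% of the sum. The change was -1.48 on the log2 scale (edgeR SE 0.17, adjusted p = 3.18e-05). The others included ugt-45 at -1.45 and ugt-58, an abundant member with 36.6 and 37.2 CPM in rIIS-C and 59.2 and 57.6 in skn-1i, at -0.66. Repression of ugt-61 (-0.99) was lost without rIIS-C replicate 2, and that of ugt-52 (-1.31) without rIIS-C replicate 2 or either skn-1i library.

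Markers of other tissues moved in this comparison too. Summed intestinal markers were at 2488 to 3817 CPM in rIIS-C and 15157 to 15320 in skn-1i, where 7 of 11 were higher and 2 lower. The median log2 fold change over these 11 was -0.79 (-3.70 to 0.83), so the sum moved more than a typical marker. Summed muscle markers were at 1960 to 2530 and 15435 to 15880, and 7 of 8 were higher in skn-1i. The family's sum moved the other way, and the part of these shifts in the result was not tested. With limma on RPKM, which carry no TMM factors, at a pseudocount of 1 the median of all genes was higher by 0.72. There 35 members were higher in rIIS-C and 1 lower. With RLE size factors in place of TMM the split stayed at 26 and 7.

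**Figure D2:**
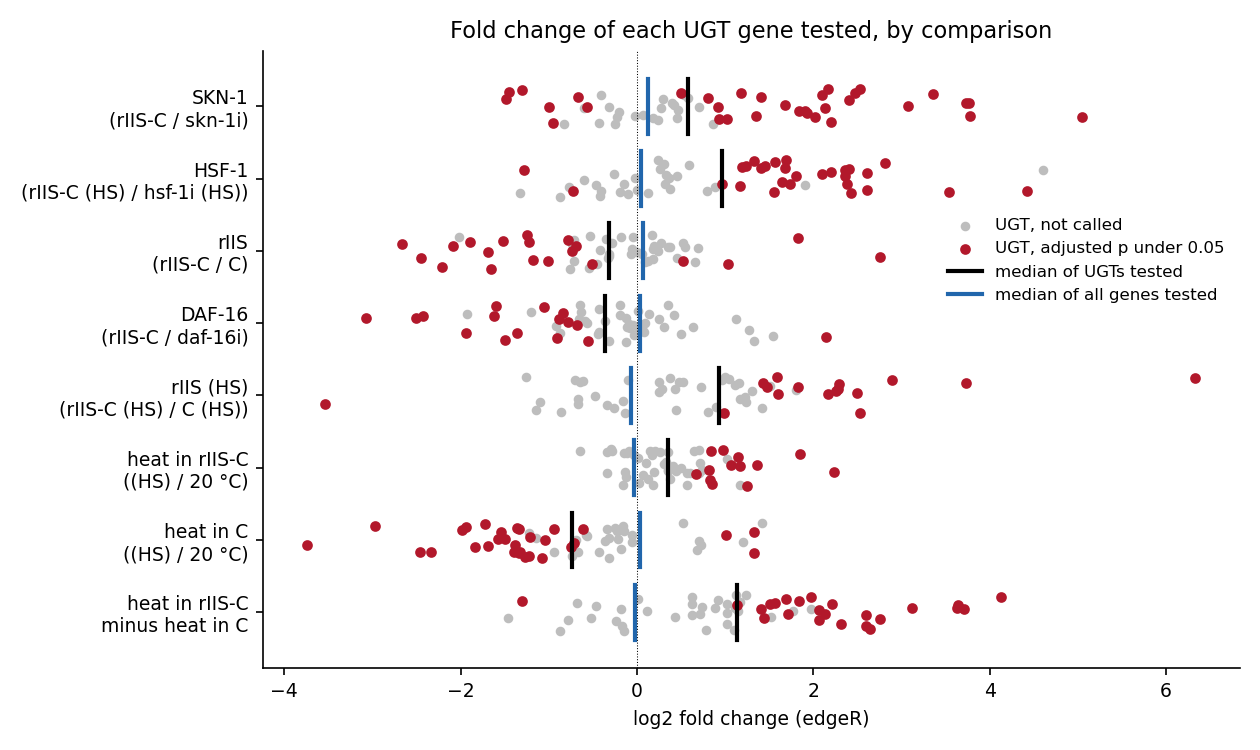
Log2 fold change of every UGT gene tested (points) in the 8 comparisons, first group over second, with called members in red and the others in grey. Black bars mark the median of the members and blue bars that of all genes tested. The members' median lay above that of all genes in SKN-1 (0.58 against 0.13) and HSF-1 (0.97 against 0.05) and below it in heat shock in C (-0.73 against 0.03).

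HSF-1 was examined after heat shock, between rIIS-C (HS) and hsf-1i (HS). Here 26 of 55 members were activated and 2 repressed, where 38.1% of all genes tested were called. The share of members higher in rIIS-C (HS) was 47.3%, against 19.3% of all genes, and the share lower was 3.64%, against 18.8%. The median log2 fold change was 0.97 over the members and 0.05 over all genes tested. The count of 28 stayed between 22 and 32 whichever library was left out, but the members' median was 0.61 without rIIS-C (HS) replicate 2. The filter was rerun without that library, so this median is over 61 members. After removal of the trend of fold change with exon length 25 were activated and 6 repressed. With the class of junction reads as a replicate block 27 were activated and 6 repressed, where 46.6% of all genes were called.

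The strongest activation was that of ugt-19, at 78.2 and 76.3 CPM in rIIS-C (HS) and 3.73 and 3.43 in hsf-1i (HS). The difference was 4.42 on the log2 scale (edgeR SE 0.19, adjusted p = 3.55e-07). The level in rIIS-C (HS) was the highest of the 7 groups and that in hsf-1i (HS) was close to that in skn-1i. For ugt-62 the values were 521 and 640 CPM against 47.5 and 51.95 (3.54, edgeR SE 0.18, adjusted p = 1.09e-06). For ugt-1 (chromosome V, 10395715 to 10397734) they were 8.10 and 14.9 against 1.20 and 2.06 (2.81, edgeR SE 0.37, adjusted p = 0.000209). In each case both libraries of rIIS-C (HS) lay above both of hsf-1i (HS). Next came ugt-65 and ugt-22, both at 2.61, and ugt-26 at 2.42. For ugt-22 the level of 74.0 and 77.4 CPM in rIIS-C (HS) was that of unheated rIIS-C, and it stood at 12.8 and 11.8 in hsf-1i (HS). The 2 repressed members were ugt-52 (-1.28), a low gene whose call was lost in 12 alternatives, among them without C replicate 1, C replicate 2, rIIS-C (HS) replicate 1 and either library of daf-16i or hsf-1i (HS), and ugt-45 (-0.73), with 10.7 and 11.4 CPM against 16.9 and 19.5.

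Intestinal markers summed to 7000 to 8288 CPM in rIIS-C (HS) and 17408 to 18477 in hsf-1i (HS), where 6 of 11 were higher and 2 lower. Their median log2 fold change was -0.58 (-2.37 to 0.72). Muscle markers summed to 4397 to 4590 and 14012 to 14383, with 7 of 8 higher in hsf-1i (HS). As in skn-1i, these sums moved against that of the family, and their part in the result was not tested.

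The SKN-1 and HSF-1 comparisons share no library, although both were fitted with a common spread. Of the 26 members activated by each, 20 were the same genes, which is 76.9% of either list. Among all genes tested, 2094 were activated by both, which is 49.3% of those activated by SKN-1 and 78.0% of those activated by HSF-1. They included ugt-62, ugt-47, ugt-22, ugt-46, ugt-12 and ugt-49, the 6 members of highest RPKM. Both members repressed by HSF-1, ugt-45 and ugt-52, were among the 7 repressed by SKN-1. No member was called in opposite directions, and of all genes called in both comparisons 97.0% were called in the same direction. With the class of junction reads as a block, 21 members were activated by both, and 3 of 6 members repressed by HSF-1 were repressed by SKN-1. The size of the change differed from gene to gene. Loss of ugt-22 was larger in skn-1i (5.05 against 2.61 on the log2 scale), while loss of ugt-19 was larger in hsf-1i (HS) (4.42 against 2.53). These differences between the comparisons were not tested. Both RNAi groups, like C (HS), also had a lower RPKM at a given CPM. For ugt-62 it was 4.69 RPKM at 11.9 CPM in skn-1i, 18.1 at 49.7 in hsf-1i (HS) and 26.1 at 75.3 in C (HS). In rIIS-C it was 127 at 162 and in rIIS-C (HS) 364 at 581. The part of this difference in scaling in the overlap was not tested.

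**Figure D3:**
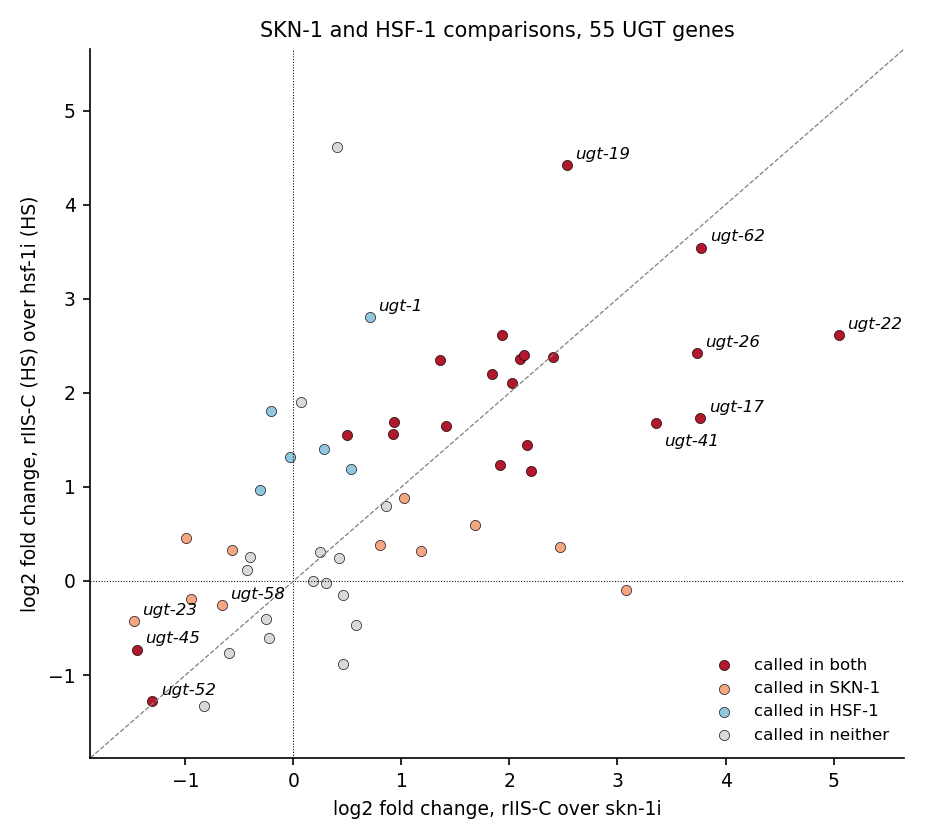
Log2 fold change of 55 UGT genes in the SKN-1 comparison (x axis, rIIS-C over skn-1i) and in the HSF-1 comparison (y axis, rIIS-C (HS) over hsf-1i (HS)), with the diagonal dashed and colours for the comparisons in which a member was called. Of the members called in both, 20 lie at the upper right and 2, ugt-45 and ugt-52, at the lower left.

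At 20 °C a part of the family was lower in the daf-2 animals. Between rIIS-C and C, 16 of 55 members were lower and 4 higher, where 11% of all genes were called. The members lower in rIIS-C were 29.1% of those tested, against 6.54% of all genes, and those higher 7.27%, against 4.46%. The median log2 fold change was -0.32 over the members and 0.06 over all genes. The members' median moved when single libraries were left out. It was -0.0060 without rIIS-C replicate 1, -0.55 without rIIS-C replicate 2 and -0.18 without C replicate 1. The filter was rerun in these fits, which tested 61, 56 and 61 members. Without daf-16i replicate 1, which is not in this comparison, 61 members were tested and the median was -0.25. Leaving out C replicate 1 or C replicate 2 reduced the 20 calls to 12 and 11, and a fit of these 4 libraries alone or of all 14 gave 10 each.

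The largest decrease was in ugt-30 (chromosome V, 15121847 to 15125188), from 8.78 and 9.12 CPM in C to 1.18 and 1.496 in rIIS-C (-2.67, edgeR SE 0.26, adjusted p = 6.71e-05). In ugt-41 (chromosome V, 7161247 to 7163565) the level went from 55.5 and 53.99 to 5.39 and 13.2 (-2.45, edgeR SE 0.35, adjusted p = 0.000866). Levels of ugt-4 (chromosome V, 12793110 to 12795306) were 19.4 and 19.04 in C and 3.03 and 4.78 in rIIS-C (-2.21, SE 0.21). Levels of ugt-16 (chromosome V, 12825045 to 12827273) were 29.3 and 27.0 against 6.74 and 6.56 (-2.08, SE 0.17), and those of ugt-1 were 16.9 and 15.6 against 3.71 and 4.73 (-1.89, SE 0.29). For these 5 members the groups did not overlap and the call held under every alternative tried. The decrease of ugt-9 (-1.69) was lost without C replicate 1, C replicate 2 or rIIS-C replicate 1. Among abundant members, ugt-12 went from 78.0 and 77.2 CPM to 32.9 and 33.2 (-1.23), and ugt-22 from 123 and 118.5 to 72.1 and 77.1 (-0.69), a call lost without either C library.

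The 4 members higher in rIIS-C were ugt-18, ugt-52, ugt-64 and ugt-50. Of these ugt-18 (chromosome V, 12820333 to 12822754) rose from 0.750 and 0.554 CPM to 2.53 and 5.50 (2.75, edgeR SE 0.38, adjusted p = 0.000722), and ugt-64 from 13.7 and 15.3 to 30.998 and 28.5 (1.03). The rise of ugt-52, from 0.3001 and 0.504 CPM to 1.52 and 1.496 (1.83), lost its call when any 1 of the 10 libraries other than those of C (HS) and rIIS-C (HS) was left out. In the same comparison 5 of 8 hypodermal markers were lower in rIIS-C (median -2.09, summed level 2164 to 3042 CPM against 3439 to 3537 in C), 4 of 8 muscle markers were lower and all 4 early embryo markers tested were higher. Of 11 intestinal markers 2 were higher and none by edgeR lower. The part of these in the result was not tested.

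The comparison of rIIS-C with daf-16i asks which members depend on DAF-16. Between rIIS-C and daf-16i, 15 of 55 members were repressed by DAF-16 and 1, ugt-52, was activated, where 6.07% of all genes were called. The repressed members made up 27.3% of those tested, against 3.29% of all genes, and the activated one 1.82%, against 2.78%. The median log2 fold change was -0.37 over the members and 0.03 over all genes. The former was -0.23 without rIIS-C replicate 1 (61 members tested) and -0.63 without rIIS-C replicate 2 (56 tested). Without daf-16i replicate 1, or without daf-16i replicate 2, 9 members were called, and 7 in a fit of the 4 libraries alone or of all 14. With the class of junction reads as a block 24 were called, 20 of them repressed, where the share of all genes called was 10.98%.

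The change was largest in ugt-16, with 59.0 and 52.6 CPM in daf-16i against 6.74 and 6.56 in rIIS-C (-3.07, edgeR SE 0.17, adjusted p = 1.5e-06). The daf-16i level also lay above both C libraries, at 29.3 and 27.0 CPM. It was followed by ugt-4, with 25.1 and 21.9 against 3.03 and 4.78 (-2.50, edgeR SE 0.21, adjusted p = 3.36e-05), and ugt-30, with 8.29 and 6.87 against 1.18 and 1.496 (-2.42, edgeR SE 0.26, adjusted p = 0.000175). For ugt-41 the values were 38.7 and 37.9 against 5.39 and 13.2 (-1.94, SE 0.35). For ugt-1 they were 14.7 and 12.1 against 3.71 and 4.73 (-1.62), a call lost without daf-16i replicate 1, and ugt-66 (-1.60) lost its call without daf-16i replicate 2. Of abundant members, ugt-12 was at 96.0 and 91.1 CPM in daf-16i (-1.50, edgeR SE 0.14, adjusted p = 5.91e-05). The rIIS and DAF-16 comparisons share the rIIS-C libraries, so that a low value there enters both, and their overlap is not given as a result. The activation of ugt-52 (2.15), at 1.52 and 1.496 CPM in rIIS-C and 0.327 and 0.333 in daf-16i, was lost under 15 alternatives, among them the removal of any 1 of the same 10 libraries. None of 8 hypodermal or 8 muscle markers was called by edgeR here, and 2 of 4 early embryo markers were higher in rIIS-C.

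Several members were both repressed by DAF-16 and activated by SKN-1, so that RNAi of the 2 factors in the same rIIS animals moved them to opposite sides. The level of ugt-16 was 59.0 and 52.6 CPM in daf-16i, 6.74 and 6.56 in rIIS-C and 3.24 and 3.63 in skn-1i. That of ugt-62 was 270 and 247 in daf-16i, 173 and 150 in rIIS-C and 13.4 and 10.4 in skn-1i, although its DAF-16 call (-0.68, edgeR SE 0.16, adjusted p = 0.0318) was lost without C replicate 1, C replicate 2, rIIS-C replicate 2 or either daf-16i library. That of ugt-19 was 30.96 and 29.7 in daf-16i, 14.2 and 18.1 in rIIS-C and 2.84 and 2.81 in skn-1i. Since rIIS-C is the reference of both, the values are given side by side and not as 2 independent results.

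**Figure D4:**
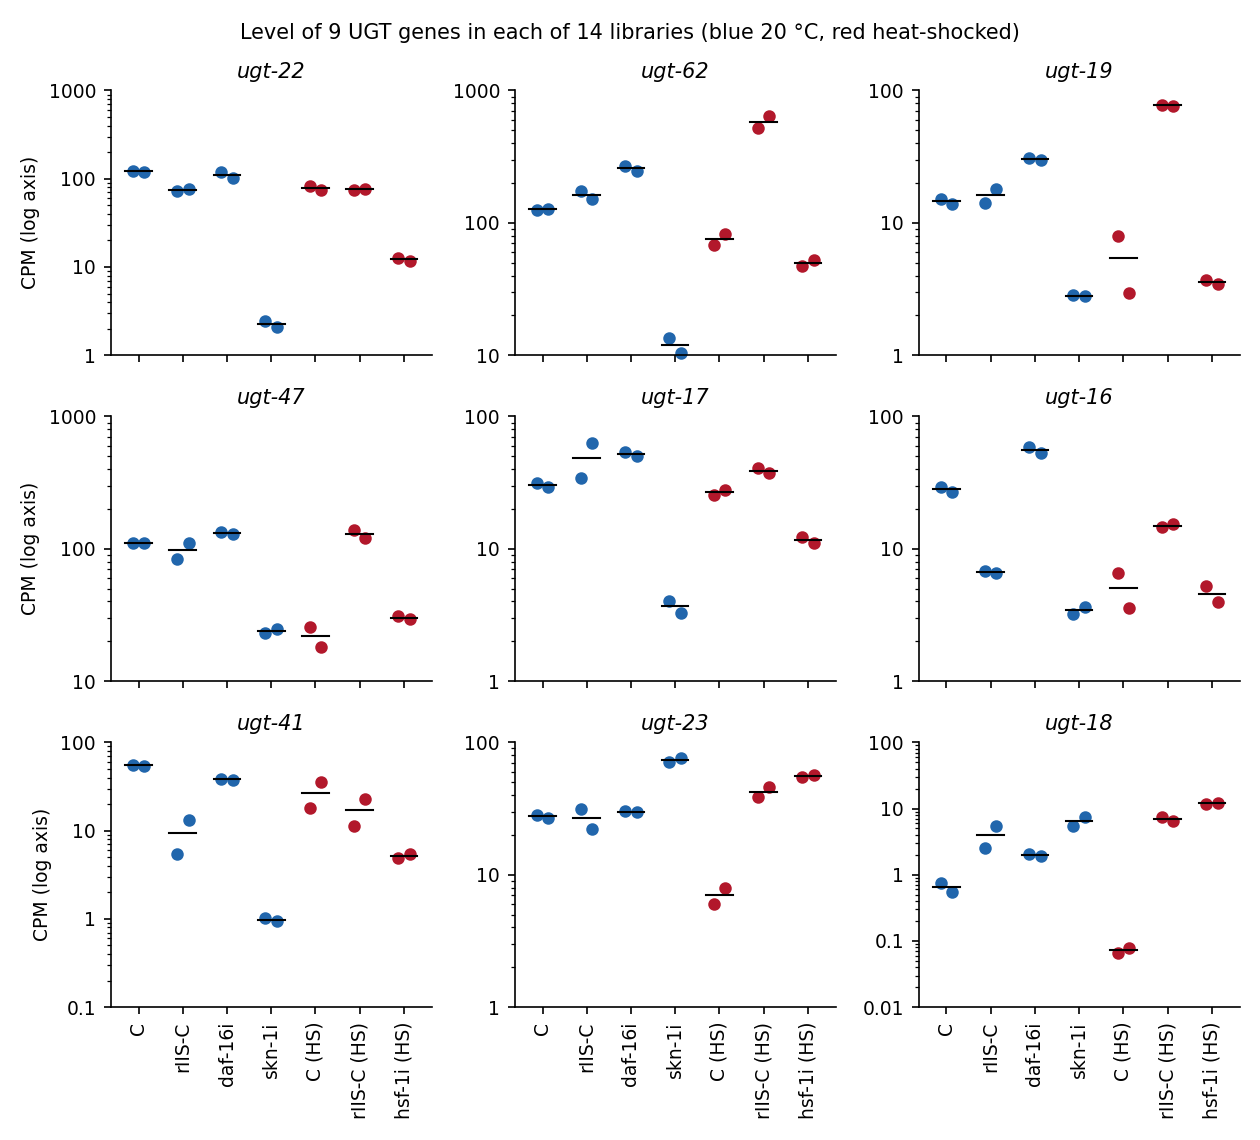
Level of 9 UGT genes in each of the 14 libraries (points, CPM, log axes that differ between panels), with the mean of each group as a bar, 20 °C in blue and heat shock in red. The levels of ugt-22, ugt-62, ugt-19, ugt-47, ugt-17 and ugt-41 were lower in skn-1i than in rIIS-C, and in hsf-1i (HS) than in rIIS-C (HS), ugt-16 was highest in daf-16i, and ugt-23 was highest in skn-1i (71.2 and 75.7 CPM).

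On heat shock more members were called lower than higher in C, and more were called higher than lower in rIIS-C. The paper reports that some rrf-3 animals were unhealthy and immotile after heat shock, and that most of these were taken out by hand. How far this shaped the comparisons with C (HS) was not tested. In C, 27 of 57 members fell on heat shock and 3 rose. Among all genes tested 52.3% were called, so the share of members called (52.6%) was that of the background, but the directions differed, with 47.4% of members lower against 24.9% of all genes and 5.26% higher against 27.4%. The median log2 fold change was -0.73 over the members and 0.03 over all genes. Without C replicate 2, 18 members were called, and 15 in a fit of the 4 libraries alone. After removal of the trend of fold change with exon length 19 were called, 13 lower and 6 higher, and the members' median was -0.27.

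The largest fall was that of ugt-4, from 19.4 and 19.04 CPM in C to 1.07 and 1.82 in C (HS) (-3.74, edgeR SE 0.32, adjusted p = 5.12e-06). Levels of ugt-16 went from 29.3 and 27.0 to 6.61 and 3.57 (-2.46, SE 0.27), those of ugt-47 from 111 and 111 to 25.8 and 18.1 (-2.34, SE 0.22), and those of ugt-23 from 28.2 and 26.9 to 6.01 and 8.004 (-1.98, SE 0.23). Smaller falls were those of ugt-5 (-1.94) and ugt-54 (-1.84). For all 6 the groups did not overlap and the calls held under every alternative. The 3 members that rose were ugt-44, from 22.6 and 21.5 CPM to 60.3 and 49.8 (1.32, edgeR SE 0.25, adjusted p = 0.000766), ugt-64 (1.01) and ugt-15 (1.33), which had 1.05 and 1.36 CPM in C and 2.20 and 3.96 in C (HS). The level of ugt-18 rested on 1 read in each C (HS) library, against 10 and 11 reads in C. The ratio of C over C (HS) was 8.73, with a 95% interval from 2.13 to 76.8 that covers counting error only. Intestinal markers summed to 3569 to 3813 CPM in C and 8694 to 12760 in C (HS), with 6 of 11 higher and 1 lower (median log2 fold change 0.54). Muscle markers summed to 3625 to 3632 and 9593 to 12015, with 6 of 8 higher and 2 lower (median 1.45). The part of both marker sets in the result was not tested.

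In rIIS-C, 13 of 55 members rose on heat shock and none fell by edgeR, where 10.2% of all genes were called (6.56% higher). At an unadjusted p under 0.05, 20 members were higher and 0 lower, and DESeq2 called 14 higher and 0 lower. The median log2 fold change was 0.35 over the members and -0.03 over all genes. For the members it was 0.15 without rIIS-C replicate 1 and 0.13 without rIIS-C (HS) replicate 2. It was 0.65 and 0.58 when the other library of each group was left out. The filter was rerun in these fits, so the members tested differed. The strongest rises were those of ugt-19, from 14.2 and 18.1 CPM to 78.2 and 76.3 (2.24, edgeR SE 0.15, adjusted p = 1.89e-05), and ugt-62, from 173 and 150 to 521 and 640 (1.84, edgeR SE 0.17, adjusted p = 8.87e-05). Both levels in rIIS-C (HS) were the highest of all groups. Further members were ugt-1 (1.37), ugt-63 (1.25), ugt-16 (1.17) and ugt-61 (1.14). Leaving out rIIS-C (HS) replicate 2 ended the calls of ugt-1 and ugt-61, and leaving out rIIS-C replicate 2 that of ugt-61. A fit of these 4 libraries alone called 1 member, ugt-19, and one of all 14 libraries 6. With limma on RPKM at a pseudocount of 1, 5 rose and 1 fell. Intestinal markers summed to 2488 to 3817 CPM in rIIS-C and 7000 to 8288 in rIIS-C (HS), and 6 of 11 rose with 0 lower by edgeR (median log2 fold change 0.81). Muscle markers rose as well (6 of 8), as did sperm markers (5 of 8). These markers moved the same way as the family, and their part in the result was not tested.

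The response itself was then compared between the strains, as the heat shock change in rIIS-C minus that in C. It was higher in rIIS-C for 23 of 57 members and lower for 1, where 20.5% of all genes were called (9.97% higher and 10.6% lower). The median difference was 1.14 on the log2 scale over the members and -0.02 over all genes. After removal of the trend with exon length it was 0.72 over the members, and 16 were called. The number called fell to 13 when either C library was left out (replicate 1 or replicate 2), 15 when rIIS-C (HS) replicate 2 was, and 12 in a fit of the 8 libraries alone. In ugt-4 the change was -3.74 in C, and in rIIS-C the level went from 3.03 and 4.78 CPM to 4.93 and 5.76 (difference 4.12, edgeR SE 0.43, adjusted p = 0.000127). In ugt-19 it was -1.39 in C, from 15.2 and 13.9 CPM to 8.01 and 2.93, and 2.24 in rIIS-C (difference 3.64, edgeR SE 0.46, adjusted p = 0.000465). In ugt-16 it was -2.46 in C and 1.17 in rIIS-C (difference 3.63, edgeR SE 0.38, adjusted p = 0.000139). In ugt-62 it was -0.75 and 1.84 (difference 2.59, edgeR SE 0.29, adjusted p = 0.000182). The 1 member with the lower response in rIIS-C was ugt-64, which rose in C and was at 30.998 and 28.5 CPM in rIIS-C and 24.6 and 23.8 in rIIS-C (HS) (difference -1.31). Only 1 member, ugt-44, was called higher on heat shock in both strains. Of the 27 members that fell in C, 9 were called higher in rIIS-C, and the others were not called there. This overlap was not counted over all genes. Of the intestinal markers 1 of 11 had a higher and 1 a lower response in rIIS-C (median difference 0.01), and of the muscle markers 1 of 8 each.

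**Figure D5:**
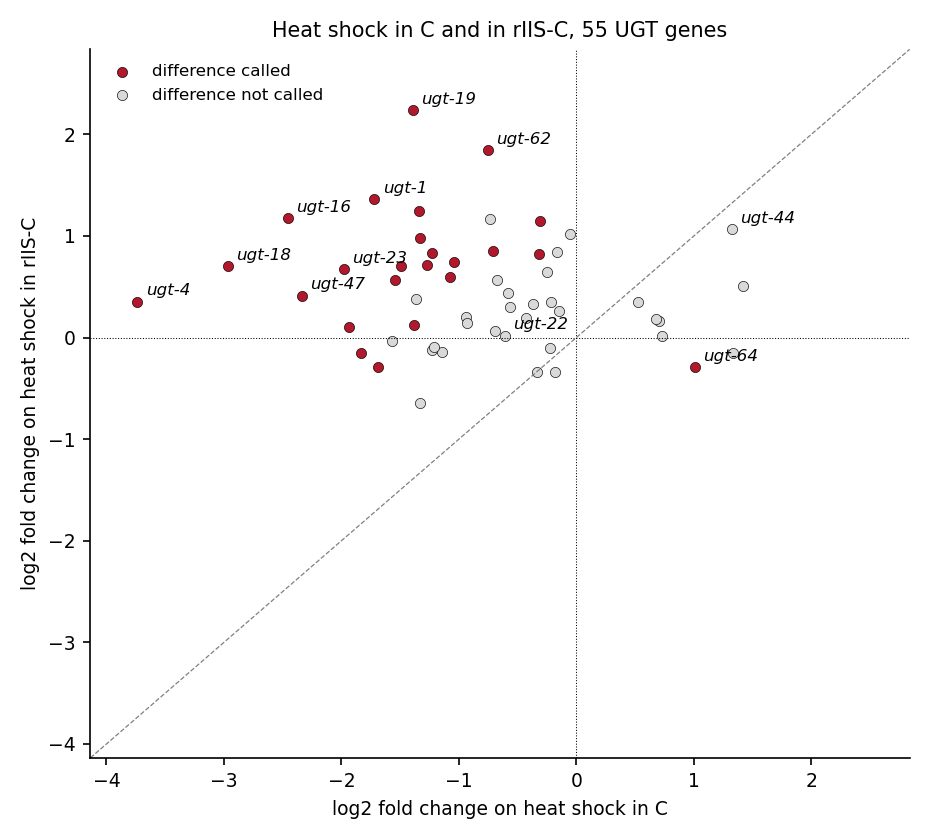
Log2 fold change on heat shock in C (x axis) and in rIIS-C (y axis) for 55 UGT genes, with the diagonal dashed and members whose response differed between the strains in red. Most red points lie above the diagonal, with ugt-4, ugt-18, ugt-19 and ugt-16 farthest from it, and ugt-64 lies below. The position of ugt-18 on the x axis rests on 2 reads in C (HS).

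After heat shock, rIIS-C (HS) lay above C (HS) for 15 of 54 members and below for 1, where 24.9% of all genes were called. The members higher were 27.8% of those tested, against 10.4% of all genes, and the median log2 fold change was 0.93, against -0.07. This count depended on single libraries. It was 7 when replicate 1 of rIIS-C (HS) was left out, 4 when replicate 2 was, and 30 when C (HS) replicate 1 was, where 5.38%, 0.728% and 45.4% of all genes were called. After removal of the trend with exon length 13 were called, and the members' median was 0.58. Among members at 5 CPM or more in a group, the largest change was that of ugt-18 (fitted value 6.33, edgeR SE 0.54, adjusted p = 0.00136), which depends on the prior count since C (HS) had so few reads. It was followed by ugt-19 (3.73), ugt-62 (2.89, edgeR SE 0.25, adjusted p = 0.00136), ugt-23 (2.53, edgeR SE 0.26, adjusted p = 0.00191), ugt-47 (2.50, edgeR SE 0.29, adjusted p = 0.00235) and ugt-2 (2.29). The calls of ugt-19 and ugt-2 were lost without rIIS-C (HS) replicate 2. For ugt-23 the levels were 38.4 and 45.8 CPM in rIIS-C (HS) and 6.01 and 8.004 in C (HS), the lowest of any group. Of ugt-18, 116 and 49 reads in rIIS-C (HS) stood against 1 read in each C (HS) library, a ratio of 99.5 (95% counting interval 27.1 to 828). The 1 member lower in rIIS-C (HS) was ugt-15, at 0.259 and 0.268 CPM against 2.20 and 3.96 (-3.54). In contrast, ugt-22 was at 74.0 and 77.4 CPM in rIIS-C (HS) and 83.2 and 75.4 in C (HS), which overlapped (-0.13, edgeR SE 0.23, adjusted p = 0.694). Intestinal markers summed to 7000 to 8288 CPM and 8694 to 12760 in the 2 groups, with 3 of 11 higher and 2 lower in rIIS-C (HS), and 6 of 8 muscle markers were lower there. Their part was not tested.

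Across the 8 comparisons, ugt-16 was called in all of them and 7 of the 55 members tested over the 12 libraries in none. The 7 were low, with the highest group mean at 1.03 to 6.86 CPM. Among the members tested, the highest group mean was in C for 16, in daf-16i for 12 and in rIIS-C (HS) for 12. The lowest group mean was in skn-1i for 22, in C (HS) for 15 and in hsf-1i (HS) for 10, and in no case in rIIS-C (HS). These counts were not made over all genes and are not read as a trait of the family. In the SKN-1, heat shock in C and HSF-1 comparisons, which hold these groups, 56.2%, 52.3% and 38.1% of all genes were called.

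Neighbouring genes were not always called together. In the pair of ugt-47 and ugt-17, and in the pair of ugt-1 and ugt-2 (chromosome V, 10395715 to 10401222), both members were activated by HSF-1, and SKN-1 activated both of the first pair and 1 of the second. In the group of ugt-5, ugt-4, ugt-6 and ugt-3 (chromosome V, 12790714 to 12800193), all 3 members tested were activated by SKN-1 and all 3 fell on heat shock in C. Next to it, ugt-18, ugt-16 and ugt-15 (chromosome V, 12820333 to 12830058) went separate ways. Under rIIS ugt-18 rose and ugt-16 fell. SKN-1 activated ugt-16, whereas ugt-18 was not called there. Its level of 5.47 and 7.49 CPM in skn-1i overlapped that of 2.53 and 5.50 in rIIS-C. In the largest tandem group, with 6 members tested, 4 were lower under rIIS. SKN-1 activated 1 of them (ugt-12) and repressed 1, and HSF-1 activated ugt-12 alone. Beside these counts, 30.6% of all genes tested were activated by SKN-1 and 19.3% by HSF-1. On heat shock in C 24.9% of all genes fell, and 6.54% were lower under rIIS. Within a tandem group the mean level ranged widely, from 0.115 to 31.4 RPKM in the largest.

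The other detoxification families are given by their counts. Of 34 glutathione S-transferases tested, 8 were activated and 14 repressed by SKN-1 (median -0.43), 2 were activated and 8 repressed by HSF-1 (median -0.43), and of 39 tested 26 rose on heat shock in C and none fell by edgeR (median 1.30). Their summed level was 744 to 787 CPM in C and 2272 to 3429 in C (HS). Of 52 cytochrome P450 genes, 17 were activated and 10 repressed by SKN-1 (median 0.32), and 17 and 5 by HSF-1 (median 0.56). Of 21 ABC transporters of the pgp and mrp families, 10 were activated and 2 repressed by SKN-1 (median 1.04), and 14 fell with none higher by edgeR on heat shock in C (median -1.98), where 12 also had a higher response in rIIS-C. Under rIIS at 20 °C, 9 P450 genes were higher and 7 lower (median 0.01), 2 glutathione S-transferases were higher and 0 lower by edgeR (median 0.08), and 1 ABC transporter was higher and 1 lower (median -0.31), beside 4 and 16 of the UGTs (median -0.32). The SKN-1 comparison called 64.7% of the glutathione S-transferases, 51.9% of the P450 genes and 57.1% of the ABC transporters, beside 56.2% of all genes. The HSF-1 comparison called 29.4% of the first and 42.3% of the second, beside 38.1%. Heat shock in C called 66.7% of the first and of the third, beside 52.3%. Of the ABC transporters 57.1% had a higher response in rIIS-C, beside 9.97%. Under rIIS the shares called were 5.88%, 30.8% and 9.52%, beside 11%. Differences between the families were not tested.

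Of 7 genes that supply UDP-sugars, none was called under rIIS by edgeR. Of these sqv-1, whose product converts UDP-glucuronic acid to UDP-xylose, was activated by SKN-1 (1.82, edgeR adjusted p = 6.04e-06) and HSF-1 (1.39, edgeR adjusted p = 0.000116) and fell on heat shock in C (-1.60). SKN-1 also activated D1005.2 (1.88, edgeR adjusted p = 0.00144) and sqv-7 (0.38). HSF-1 also activated sqv-7 (0.90) and R05F9.6 (0.54) and repressed K08E3.5 (-0.52). DAF-16 repressed gale-1 (-0.71, edgeR adjusted p = 0.0108). On heat shock in C 3 others rose, R05F9.6 (1.25), K08E3.5 (0.85) and gale-1 (0.49). The shares of the 7 genes called were 42.9% in SKN-1, 71.4% in HSF-1, 14.3% in DAF-16 and 57.1% in heat shock in C. All genes stood at 56.2%, 38.1%, 6.07% and 52.3%. Changes of sqv-4, the UDP-glucose dehydrogenase that makes UDP-glucuronic acid, were small, with 0.37 for HSF-1 (edgeR adjusted p = 0.0476). Of 12 genes of regulators, the nuclear receptor gene nhr-114 was activated by SKN-1 (3.54, edgeR adjusted p = 1.73e-06) and HSF-1 (1.66, edgeR adjusted p = 0.000323). The gene of nhr-8, a nuclear receptor of xenobiotic resistance, fell on heat shock in C (-2.26, edgeR adjusted p = 9.53e-06), with a higher response in rIIS-C (difference 2.68, edgeR adjusted p = 0.000155). The gene of another nuclear receptor, nhr-86, went the other way. It was repressed by SKN-1 (-1.03, edgeR adjusted p = 0.00124), rose on heat shock in C (1.72, edgeR adjusted p = 8.48e-05) and had a lower response in rIIS-C (difference -1.61, edgeR adjusted p = 0.00639). Of the 12, 3 were activated and 1 repressed by SKN-1, 3 were activated by HSF-1, and 1 rose and 6 fell on heat shock in C. The activated genes included skn-1 for SKN-1 and hsf-1 for HSF-1, the RNAi targets themselves, so these calls follow from the knockdown. The shares called were 33.3%, 25% and 58.3% (of 12 genes), beside 56.2%, 38.1% and 52.3% of all genes tested.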

How the data were processed

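The deposited files cover whole-worm RNA in 14 libraries, 2 per group. Base calling used CASAVA (version 1.8.2) per the labels, and the paper's methods name CLC Genomics Workbench for mapping and counting. The deposited tables hold exon read counts per gene, without scaling, and RPKM, which the authors computed from these reads, exon length and mapped reads. In 2 tables, 6 unnamed columns with values were not used.

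For the tests, R 4.3.3 was used with edgeR 4.0.16 and limma 3.58.1 on the counts (filterByExpr, TMM, a coefficient per group, quasi-likelihood test, Benjamini-Hochberg adjustment over all genes tested, threshold 0.05). Fits used the 12 libraries without C (HS), the 6 heat-shocked libraries for rIIS (HS), and all 14 for heat shock in C and the response difference. C (HS) was left out of the 12 because its share of mapped reads stood apart. CPM carry the TMM factors of all 14. Alternatives were DESeq2 1.42.0, RLE factors, no filter, unique reads, limma on log2 RPKM plus 1 or 0.1, removal of the trend with exon length, other sets of libraries, libraries left out in turn and replicate blocks. The fit was run on simulated counts in which 200 genes were changed, as many up as down. That is fewer than were called in the data, so the run cannot check the scaling where many genes differ. The junction class (lower or higher share of junction reads in a group) paired the 12 libraries, since all 15 pairs of groups correlated above 0.1 (0.116 to 0.373). Its source is the read data, not a label. The paper's methods name alternative read lengths and sequencing platforms, and whether the class follows these was not tested.

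Members and lists were chosen with earlier results of these data known. Named members are, per comparison, the 6 called with the largest change among those averaging 5 CPM or more in a group, the 5 of highest RPKM, those called alike in SKN-1 and HSF-1 and also in rIIS, DAF-16 or rIIS (HS), and 3 named earlier. Among others, ugt-15, ugt-44, ugt-45, ugt-50, ugt-58 and ugt-64 were named after their values were seen. Sequences and promoter motifs were not analysed here. Python 3.11.15 with pandas 2.3.3, numpy 2.4.6 and matplotlib 3.10.9 produced the tables and plots.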

Additional observations from a re-analysis of the deposited data

Results flagged for a closer look

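The heat shock response differed between rIIS-C and C by the interaction test (edgeR adjusted p under 0.05 over all genes) for 24 members, of which 21 are named here with the difference of their log2 fold changes (rIIS-C minus C). It was 4.12 for ugt-4, 3.71 for ugt-18, 3.64 for ugt-19, 3.63 for ugt-16 and 3.11 for ugt-1. It was 2.75 for ugt-47, 2.64 for ugt-23, 2.597 for ugt-63, 2.59 for ugt-62, 2.31 for ugt-2, 2.21 for ugt-26, 2.14 for ugt-30, 2.07 for ugt-48 and 2.06 for ugt-5. It was 1.98 for ugt-65, 1.83 for ugt-41, 1.71 for ugt-54, 1.56 for ugt-12, 1.51 for ugt-21, 1.44 for ugt-61 and 1.40 for ugt-49. The value of ugt-18 rests on 1 read in each C (HS) library, and a fitted change of such a gene depends on the prior count. The count of 24 was 13 without C replicate 1 or without C replicate 2 and 15 without rIIS-C (HS) replicate 2. No library of C (HS) belongs to either class of junction reads seen in the other 12, so that the class and the C (HS) group cannot be told apart in this test.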

How the results depend on the processing

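With 2 libraries per group, counts of called members moved between settings. A fit of only the groups compared called 10 members in rIIS, 7 in DAF-16, 1 in heat shock in rIIS-C, 15 in heat shock in C and 12 in the response difference. The fit of all 14 libraries called 10 in rIIS, 26 in rIIS (HS), 7 in DAF-16 and 6 in heat shock in rIIS-C. Limma on log2 RPKM plus 1 called 33 in rIIS (HS), 10 in DAF-16 and 6 in heat shock in rIIS-C (5 higher and 1 lower), and with plus 0.1 it called 13 in rIIS, 35 in rIIS (HS), 8 in DAF-16 and 4 in heat shock in rIIS-C. It moved the median of all genes by 0.74 and 0.94 in rIIS (HS), 0.72 and 0.96 in SKN-1, 0.56 and 0.75 in HSF-1, and -0.80 and -1.08 in heat shock in C. Relative to that median the members stood at 0.58 and 0.79, 0.16 and 0.43, 0.42 and 0.71, and -0.48 and -0.78. On this scale ugt-22 in rIIS (HS) turned to 0.77 and 0.79, and ugt-61 in SKN-1 to 0.0432 and 0.0484. Removal of the trend with exon length left 19 in heat shock in C. The RPKM carry no TMM factors, unlike the edgeR fits. The cause of these moves was not tested, beyond the change of all genes given. SKN-1 and HSF-1 kept within 1.5 times of 33 and 28 called in every alternative.

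Leaving out 1 library at a time gave 11 to 21 members in rIIS, 4 to 30 in rIIS (HS), 9 to 17 in DAF-16, 26 to 36 in SKN-1, 22 to 32 in HSF-1, 9 to 15 in heat shock in rIIS-C, 18 to 34 in heat shock in C and 13 to 32 in the response difference.

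The label numbers do not pair the libraries, since 10 of 21 pairs of groups correlated above 0.1 (-0.373 to 0.318). With them as a replicate block, 19 members were called in rIIS, 16 in rIIS (HS), 14 in DAF-16, 33 in SKN-1, 27 in HSF-1, 13 in heat shock in rIIS-C, 30 in heat shock in C and 25 in the response difference. With the junction class as the block, 22, 24, 33, 33 and 17 were called in rIIS, DAF-16, SKN-1, HSF-1 and heat shock in rIIS-C.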
